A study of Mus musculus with 9 samples.

Results

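The 10 genes described here are known markers of spermatogonia, the mitotic germ cells at the base of the seminiferous tubule. They were taken by name from the 32035 genes measured in whole testis by RNAseq. Of these 10, the genes Gfra1, Ret, Zbtb16, Id4, Sall4, Lin28a, Nanos3 and Uchl1 mark the stem and progenitor pool, and Sohlh1 and Kit mark the onset of differentiation. RNA came from testes of males on the C57Bl6/N background at 15 weeks of age, with 3 WT samples, 3 samples of the Kpna6 ΔIBB/ΔIBB line and 3 of the Kpna6 -/- line (ΔIBB/ΔIBB and -/- in what follows). Kpna6 encodes importin α7, an adaptor that carries proteins into the nucleus. In the ΔIBB/ΔIBB line a neomycin cassette takes the place of exon 2, and a shortened mRNA gives a truncated protein that lacks the domain for binding importin β. In the -/- line a gene trap lies in intron 1. According to the study this line is a knockout in Sertoli cells, while its germ cells still make the full-length protein from a testis-specific first exon. Both lines had been backcrossed to C57Bl6/N for 10 generations. All 10 genes passed the filter on low counts in each of the 3 comparisons.

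Spermatogonial stem cells depend on GDNF, a ligand from the surrounding somatic cells, which is bound by the co-receptor GFRA1 and signals through the tyrosine kinase RET. Nuclear factors such as ZBTB16 (PLZF), ID4 and SALL4 and the RNA-binding proteins LIN28A and NANOS3 belong to the undifferentiated state. When these cells commit to differentiation they turn on SOHLH1 and the receptor KIT, whose ligand KITL is made by Sertoli cells.

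The libraries held 24859751 to 31484692 estimated counts on genes. Kpna6, the targeted gene, stood at 201, 325 and 332 CPM (counts relative to the TMM-normalized library size) in WT, at 81.1, 85.5 and 81.9 in ΔIBB/ΔIBB and at 247, 249 and 261 in -/- testes. WT replicate 1 was the lowest of the WT samples in Kpna6. For the 10 genes, results against WT are also given without it where it changed a call. For the other lists this was done in part. Replicate 3 of ΔIBB/ΔIBB stood apart in markers of the epididymis, with Crisp1 at 77.0 TPM, Spink8 at 81.3 and Adam7 at 6.99, beside at most 4.23, 10.7 and 0.169 TPM in any other library. Without that sample the calls among the 10 genes were the same except for Kit against WT. Markers of Sertoli, Leydig and peritubular cells, macrophages, spermatocytes and spermatids were all detected. In RNA of a whole testis, fewer cells of a type and less RNA per cell cannot be told apart. By counts in sections, the study found no differences in Sall4-labelled germ cells. It reported fewer Sertoli cells in adults of both mutant lines, and fewer pachytene spermatocytes and round spermatids in ΔIBB/ΔIBB. It does not say whether the sequenced testes were among those counted. The labels do not say whether the 3 samples of a group came from separate animals, so p-values measure the spread between these samples, which may be technical.

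Levels of the 10 genes in WT testis ranged from that of Uchl1, at 74.7 ± 3.71 TPM (SD, n = 3), to that of Ret, at 0.553 ± 0.0672 TPM. TPM corrects for transcript length, so that levels of different genes can be set side by side. Among 19994 protein-coding genes detected in WT, Uchl1 stood at percentile 87.5 and Ret at percentile 18.9. In between came Id4 with 29.6 TPM, Kit with 9.9, Sohlh1 with 7.25, Gfra1 with 3.82, Nanos3 with 2.61, Lin28a with 2.52, Sall4 with 1.76 and Zbtb16 with 1.74 TPM. In this order the WT samples of neighbours overlapped between Kit and Sohlh1, and also from Nanos3 through Lin28a and Sall4 to Zbtb16. At the other steps they did not overlap. Ret, with 39 to 69 counts per library, and Nanos3, with 24 to 44, were measured with the least precision. Counting error alone was 20.4% at the lowest Nanos3 count and 2.92% at the lowest Uchl1 count.

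**Figure D1:**
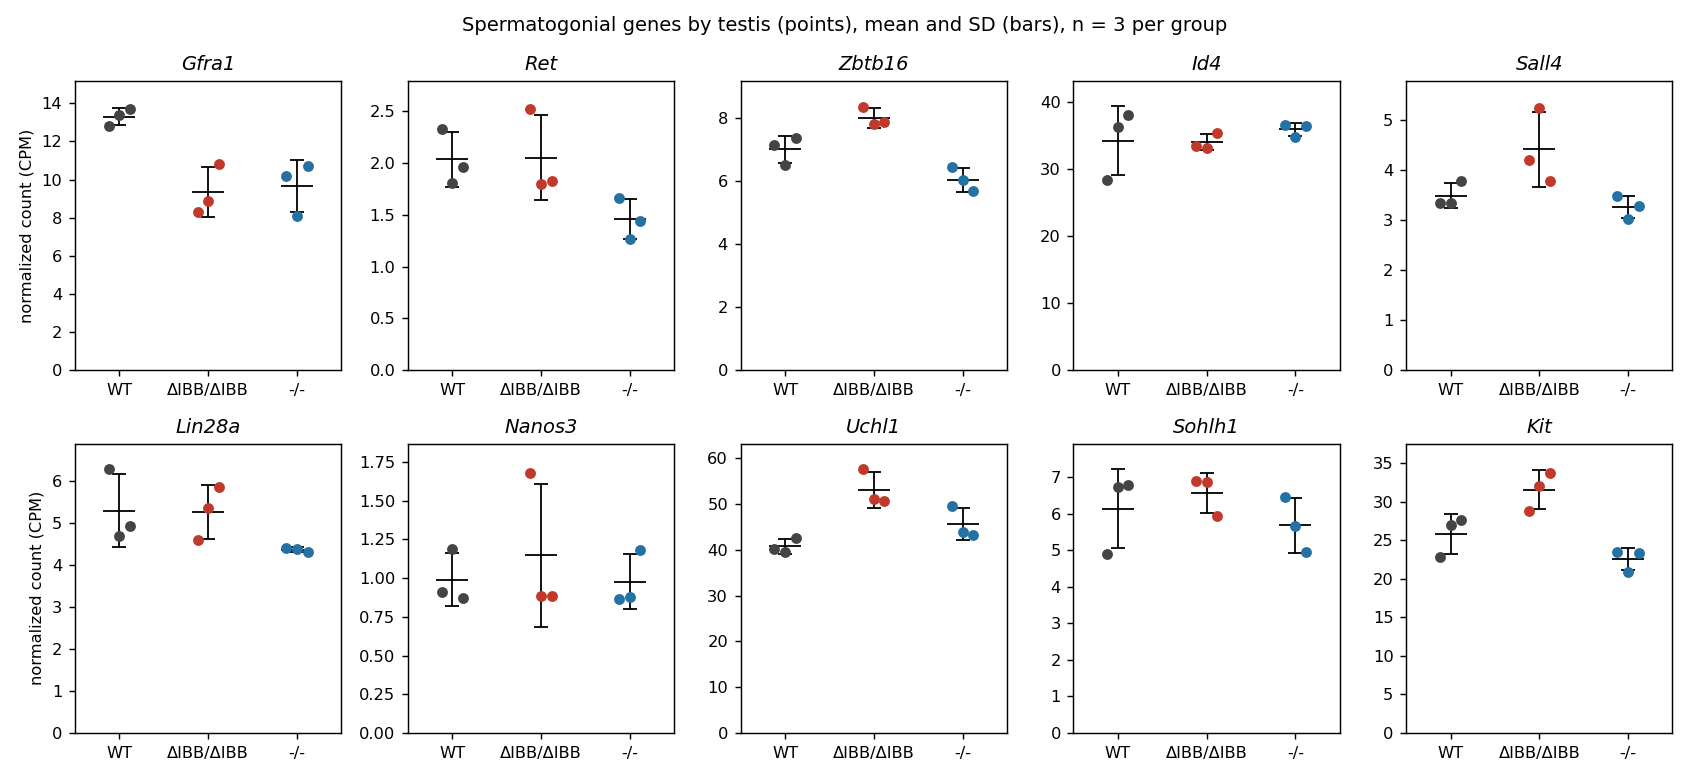
Normalized counts (CPM, vertical axis from 0) of the 10 genes in each testis, with 1 point per sample and bars for the mean and SD of the 3 samples of the WT, ΔIBB/ΔIBB and -/- groups. Gfra1 lay at 12.8 to 13.7 CPM in WT and at 8.09 to 10.8 CPM in both mutant groups, while Kit was highest in the ΔIBB/ΔIBB testes.

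The first comparison asked whether spermatogonial transcripts differed in testes that have only truncated importin α7. Uchl1 and Kit were higher and Gfra1 was lower in ΔIBB/ΔIBB testes than in WT. These 3 of 10 genes had an adjusted p under 0.05 (edgeR's quasi-likelihood test, Benjamini-Hochberg over all genes), beside 36.6% of the 18797 genes tested. By direction, 2 of 10 were higher and 1 of 10 lower, beside 17.7% and 18.9% of all genes, so the shares among the 10 were near the background. On normalized counts the groups did not overlap for 5 of 10 genes, beside 49.9% of all genes. In TPM, 1 of these, Sall4, overlapped. The median log2 fold change of the 10 genes was 0.147 and that of all genes tested 0.00898. With library size as the only scaling the median of all genes moved to 0.107, the share of higher genes among those called rose from 48.4% to 70.0%, and 5 of the 10 genes passed, with Zbtb16 (adjusted p = 0.0412) and Sall4 (adjusted p = 0.0403) added.

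The second comparison concerned the -/- line. Gfra1 was lower than in WT, and it was the 1 gene of 10 that passed the test, beside 1.6% of 18681 genes in either direction and 0.712% lower. None of the 10 passed as higher with edgeR or DESeq2, beside 0.889% of all genes. At an unadjusted p under 0.05 edgeR gave 1 higher and 3 lower genes. No share of all genes at an unadjusted p is given here or below, so such counts have no background beside them. Of the 10 fitted values 8 were below 0, with a median of -0.154 beside 0.00208 over all genes. On normalized counts the groups did not overlap for 5 of 10 genes (Gfra1, Ret, Zbtb16, Lin28a and Uchl1), beside 19.9% of all genes. In TPM, Zbtb16, Lin28a and Uchl1 overlapped.

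Set against each other, the mutant lines differed in 4 of the 10 genes, beside 30.3% of 18752 genes. Zbtb16, Sall4, Uchl1 and Kit were higher in ΔIBB/ΔIBB, beside 13.5% of all genes. None was lower with edgeR or DESeq2, beside 16.8% of all genes lower with edgeR. At an unadjusted p under 0.05 with edgeR none of the 10 was lower either. On normalized counts the groups did not overlap for 6 of 10 genes (Ret, Zbtb16, Sall4, Lin28a, Uchl1 and Kit), beside 44.5%. In TPM, Sall4 and Lin28a overlapped, while Id4 and Sohlh1 did not. The median of the 10 log2 fold changes was 0.241 and that of all genes 0.00485. With library size as the only scaling the median of all genes moved to 0.105 and the share of higher genes among those called from 44.5% to 71.0%. Each group enters 2 of the 3 comparisons, so their values are not independent of each other.

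**Figure D2:**
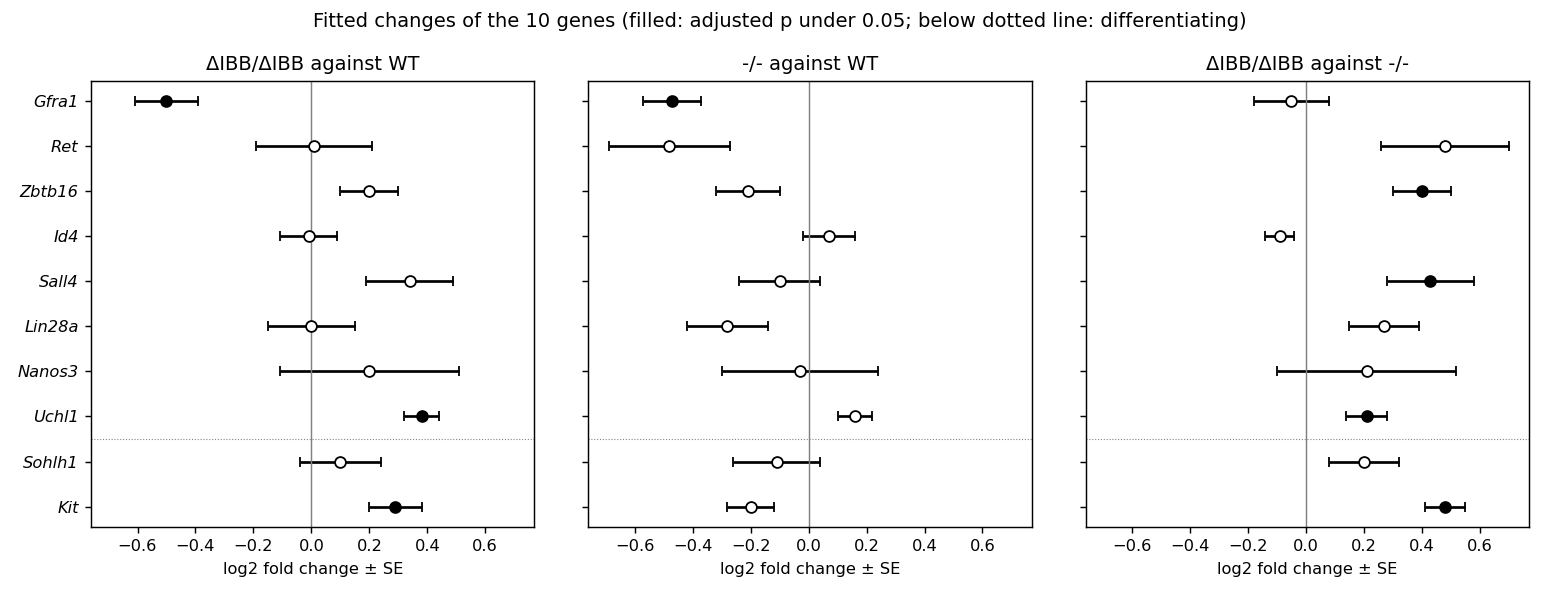
Log2 fold changes (horizontal axis) with standard errors for the 10 genes in the 3 comparisons of 3 against 3 testes; filled points have an adjusted p under 0.05. Gfra1 was at -0.50 and -0.47 against WT in the 2 mutant lines and at -0.05 between them, whereas Kit was at 0.48 between them.

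Gfra1 (ENSMUSG00000025089, GRCm38 chromosome 19 from 58235604 to 58455909, minus strand) encodes the co-receptor that binds GDNF. Its level was 12.8, 13.4 and 13.7 CPM in WT, 8.29, 8.88 and 10.8 CPM in ΔIBB/ΔIBB and 10.2, 8.09 and 10.7 CPM in -/- testes. Every mutant sample lay below every WT sample, and the mutant groups overlapped each other. In ΔIBB/ΔIBB the log2 fold change against WT was -0.50 ± 0.11 (SE, adjusted p = 0.00412), which is a level of 0.706 times that in WT. Of 17 alternatives, limma on TPM lost this call, at a pseudocount of 1 (-0.312, adjusted p = 0.0635) and of 0.1 (-0.395, adjusted p = 0.0673). In -/- it was -0.47 ± 0.10 (adjusted p = 0.0476), a level of 0.724 times WT. This second call lay close to the threshold and was lost in 13 of 17 alternative analyses, among them 5 of the 6 that left out a sample. Its value stayed between -0.547 and -0.341 in all 17, with adjusted p from 0.0111 to 0.337. Between the mutant lines the difference was -0.05 ± 0.13 (adjusted p = 0.825), with a direction that turned in 5 of 17 alternatives.

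Of the 9 Gfra1 transcripts in the files, Gfra1-201 and Gfra1-203 were the ones with at least 0.5 TPM on average in some group. They differ inside the coding region by a single 15-base exon, exon 5 of Gfra1-201 (chr19:58392573-58392587, minus strand), besides an extra first exon of Gfra1-201. The junction is given because it is what tells the 2 forms apart, from the GENCODE M21 transcripts, with the 15 bases of exon 5 in capitals and 30 bases of the neighbouring exons on either side.
Gfra1-201: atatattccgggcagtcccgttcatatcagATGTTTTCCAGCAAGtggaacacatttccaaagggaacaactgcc
Gfra1-203: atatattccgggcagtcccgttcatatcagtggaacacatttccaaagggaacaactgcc

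The sum of both Gfra1 forms was 3.55, 3.72 and 3.99 TPM in WT, 2.56, 2.72 and 3.24 TPM in ΔIBB/ΔIBB, and 2.75, 2.29 and 2.97 TPM in -/- testes. As at the gene level, all mutant samples lay below all WT samples. How the sum was divided between the forms varied widely within each group. The share of Gfra1-203, which skips exon 5, spanned 50.3% to 78.1% in WT, 28.3% to 67.3% in ΔIBB/ΔIBB and 18.9% to 88.2% in -/- testes. These shares are kallisto estimates without an error of their own, and no test was made on them.

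Ret (ENSMUSG00000030110, chromosome 6) encodes the kinase that GFRA1 engages and was the least expressed of the 10 genes in TPM. It stood at 2.33, 1.81 and 1.96 CPM in WT, 2.52, 1.80 and 1.83 CPM in ΔIBB/ΔIBB and 1.66, 1.27 and 1.44 CPM in -/- testes. The -/- samples were the lowest and did not overlap the other groups, which overlapped each other. The fitted log2 fold change was 0.01 ± 0.20 for ΔIBB/ΔIBB against WT (adjusted p = 0.984), with a direction that turned in 5 of 17 alternatives. It was -0.48 ± 0.21 for -/- against WT (adjusted p = 0.298) and 0.48 ± 0.22 for ΔIBB/ΔIBB against -/- (adjusted p = 0.12). None of the 3 passed the test.

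Kit (ENSMUSG00000005672, chromosome 5 from 75574916 to 75656722, plus strand) encodes the receptor that differentiating spermatogonia require. Its level was 22.9, 27.0 and 27.7 CPM in WT, 28.8, 32.1 and 33.8 CPM in ΔIBB/ΔIBB and 23.5, 20.9 and 23.3 CPM in -/- testes. All ΔIBB/ΔIBB samples exceeded all others, and WT and -/- samples overlapped. Against WT, Kit rose in ΔIBB/ΔIBB by a log2 fold change of 0.29 ± 0.09 (adjusted p = 0.0206), to 1.22 times the WT level. This call was lost in 6 of 17 alternatives. These were the fits without WT replicate 1 (0.208, adjusted p = 0.0673), without replicate 2 (0.282, adjusted p = 0.0647) or replicate 3 (0.241, adjusted p = 0.0673) of ΔIBB/ΔIBB, with length-scaled counts (0.362, adjusted p = 0.0813), and with limma on TPM at a pseudocount of 1 (0.442, adjusted p = 0.0564) or 0.1 (0.477, adjusted p = 0.0553). The -/- testes gave -0.20 ± 0.08 against WT (adjusted p = 0.285). Between the mutant lines the difference was 0.48 ± 0.07 (adjusted p = 0.000455), or 1.4 times, and it passed the test in all 17 alternative analyses.

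Kit-201 and Kit-204, the only protein-coding models of Kit in the files, both span 21 exons. Inside the coding region they differ by 12 bases at the end of exon 9 (chr5:75639147-75639158), which gives the known longer and shorter forms of the extracellular part. Their junction of exon 9 with exon 10 is given for the same reason as that of Gfra1, with the 12 bases in capitals and 30 bases on either side.
Kit-201: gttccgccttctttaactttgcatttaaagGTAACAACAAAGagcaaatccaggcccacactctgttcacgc
Kit-204: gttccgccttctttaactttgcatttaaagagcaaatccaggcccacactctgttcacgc

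Kit-204, the form without these bases, stood at 1.32, 2.57 and 2.05 TPM in WT, 3.46, 4.57 and 4.04 TPM in ΔIBB/ΔIBB and 2.51, 1.84 and 2.31 TPM in -/- testes. All ΔIBB/ΔIBB samples lay above the other 6. Kit-201 stood at 2.46, 2.03 and 3.31 TPM in WT, 2.36, 1.75 and 2.90 TPM in ΔIBB/ΔIBB and 1.60, 2.23 and 2.23 TPM in -/- testes, and all groups overlapped. Kit-204 made up 34.9%, 55.9% and 38.2% of both forms in WT, 59.5%, 72.2% and 58.2% in ΔIBB/ΔIBB and 61.1%, 45.2% and 50.9% in -/- testes. In these estimates the ΔIBB/ΔIBB share was above that of every WT sample but overlapped that of -/- testes. No test was made on the transcript estimates.

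A further model, Kit-208, begins in intron 16 and carries exons 17 to 21. The annotation lists it as a retained intron, and a truncated Kit that starts in this intron is known from spermatids. Its level was 2.5, 2.61 and 2.23 TPM in WT, 2.37, 3.13 and 2.48 TPM in ΔIBB/ΔIBB and 2.29, 1.5 and 1.53 TPM in -/- testes. WT and ΔIBB/ΔIBB samples overlapped, and all ΔIBB/ΔIBB samples lay above all -/- samples. The full-length forms Kit-201 and Kit-204 together were 4.58 ± 0.794 TPM (SD, n = 3) in WT, 6.36 ± 0.554 TPM in ΔIBB/ΔIBB and 4.24 ± 0.261 TPM in -/- testes, and for this sum the ΔIBB/ΔIBB samples did not overlap the others. Kit is also known from Leydig and mast cells. The summed level of 10 Leydig markers was 2300 to 3560 TPM in WT, 2290 to 3320 TPM in ΔIBB/ΔIBB and 2840 to 2930 TPM in -/- testes. Of these 10, 2 were higher in ΔIBB/ΔIBB than in WT, near the 17.7% of all genes. The count was 0 with DESeq2 and 1 without WT replicate 1. The median of the 10 was -0.0353, but 0.256 without WT replicate 1 and 0.074 without replicate 3 of ΔIBB/ΔIBB. Of 8 mast cell markers 7 reached at most 0.492 TPM in any sample, with the receptor subunit Fcer1a at 0 in 7 of the 9. Mean TPM was lower in ΔIBB/ΔIBB than in WT for Cpa3, Tpsb2, Cma1, Ms4a2 and Tpsab1, and higher for Mcpt4 and Fcer1a. The remaining marker Hdc, which encodes the enzyme that makes histamine, was the 1 tested and was at 23.6, 17.6 and 19.7 TPM in WT, 23.7, 25.6 and 26.3 TPM in ΔIBB/ΔIBB and 21.2, 19.3 and 24.2 TPM in -/- testes. Like Kit it was higher in ΔIBB/ΔIBB than in WT (0.44 ± 0.07, adjusted p = 0.000797) and than in -/- (0.28 ± 0.06, adjusted p = 0.00409). The part of these cells in the Kit result was not tested.

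**Figure D3:**
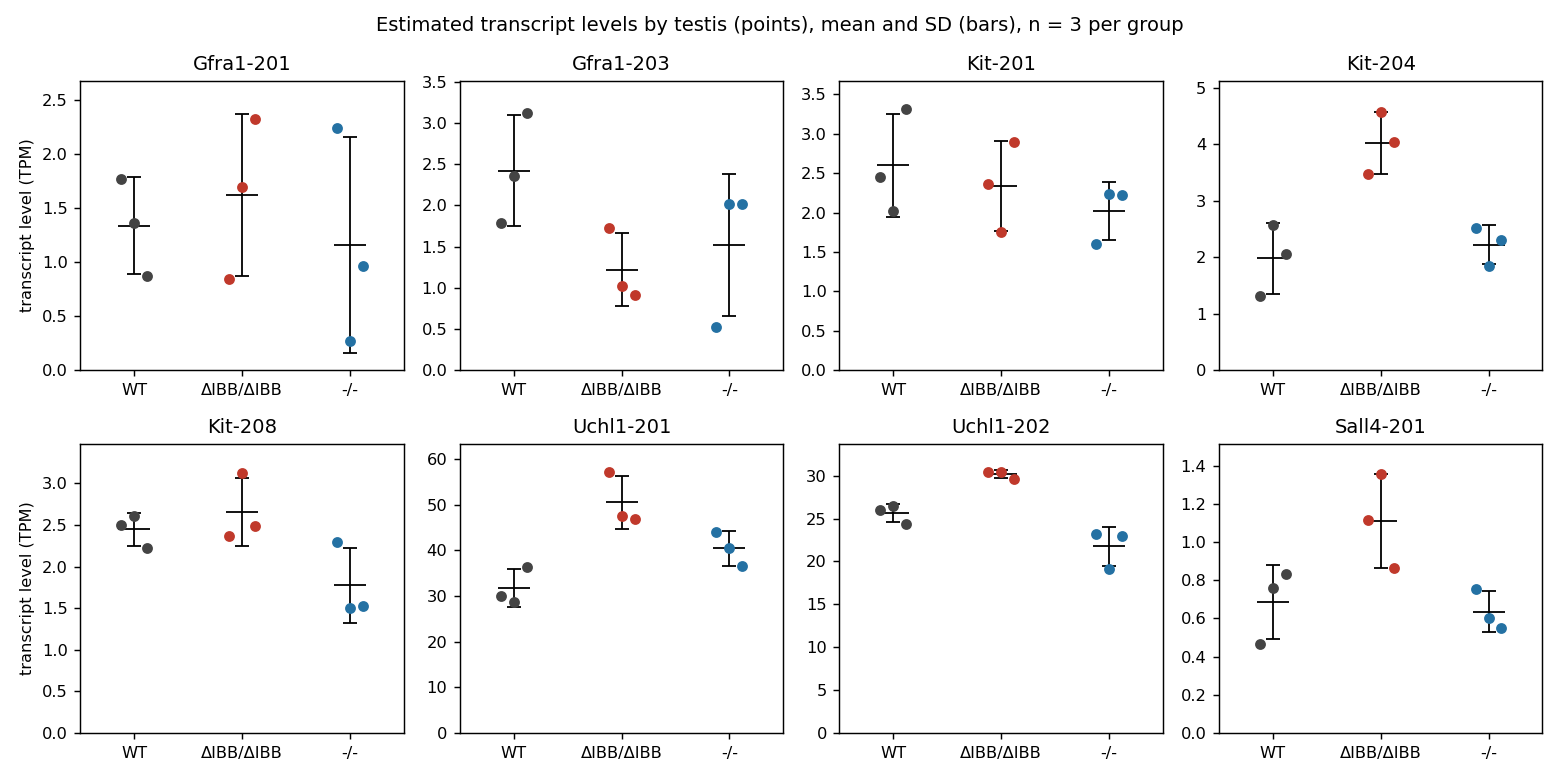
Estimated levels (TPM, vertical axis from 0) of 8 transcripts of Gfra1, Kit, Uchl1 and Sall4 in each testis, with bars for the mean and SD of 3 samples. Kit-204 reached 3.46 to 4.57 TPM in ΔIBB/ΔIBB testes and at most 2.57 TPM in the other groups, whereas Gfra1-201 and Gfra1-203 spread widely within groups.

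Zbtb16 (ENSMUSG00000066687, chromosome 9) encodes PLZF, a repressor needed for stem cell self-renewal. It was measured at 7.16, 6.53 and 7.36 CPM in WT, 8.37, 7.81 and 7.87 CPM in ΔIBB/ΔIBB and 6.44, 6.04 and 5.68 CPM in -/- testes. The 3 groups did not overlap on this scale, with ΔIBB/ΔIBB highest and -/- lowest. In TPM, WT (1.59 to 1.88) and -/- (1.39 to 1.59) overlapped, and ΔIBB/ΔIBB lay above both. Neither difference from WT passed the test, at 0.20 ± 0.10 for ΔIBB/ΔIBB (adjusted p = 0.153) and -0.21 ± 0.11 for -/- (adjusted p = 0.393). The difference between the lines was 0.40 ± 0.10 (adjusted p = 0.00862), or 1.32 times, and passed in all 17 alternative analyses.

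Sall4 (ENSMUSG00000027547, chromosome 2), a zinc finger factor of undifferentiated spermatogonia, was at 3.34, 3.33 and 3.77 CPM in WT, 4.20, 5.23 and 3.78 CPM in ΔIBB/ΔIBB and 3.47, 3.02 and 3.28 CPM in -/- testes. Replicate 3 of ΔIBB/ΔIBB lay just above the highest WT sample. The change against WT was 0.34 ± 0.15 (adjusted p = 0.103) and turned direction when lengths entered the values, to -0.136 with length-scaled counts. Between the lines the difference was 0.43 ± 0.15 (adjusted p = 0.0479). That call was lost in 11 of 17 alternative analyses, including DESeq2 and the removal of any sample but replicate 3 of ΔIBB/ΔIBB, with adjusted p from 0.0163 to 0.435. Summed over transcripts, Sall4 spanned 1.69 to 1.80 TPM in WT and 1.44 to 2.29 TPM in ΔIBB/ΔIBB, which overlapped. The 5073-base transcript Sall4-201 stood at 0.465, 0.760 and 0.832 TPM in WT, 1.11, 1.36 and 0.864 TPM in ΔIBB/ΔIBB and 0.754, 0.602 and 0.548 TPM in -/- testes, while the 773-base Sall4-206 added up to 0.851 TPM on at most 9.6 counts.

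Id4 (ENSMUSG00000021379, chromosome 13) encodes an inhibitor of DNA-binding factors and marks the stem cell fraction. It was at 28.3, 36.2 and 38.0 CPM in WT, 33.4, 33.1 and 35.3 CPM in ΔIBB/ΔIBB and 36.5, 34.8 and 36.4 CPM in -/- testes, with overlap between all groups. Its log2 fold changes were -0.01 ± 0.10, 0.07 ± 0.09 and -0.09 ± 0.05 for ΔIBB/ΔIBB against WT, -/- against WT and ΔIBB/ΔIBB against -/-, none of which passed the test. Sohlh1 (ENSMUSG00000059625, chromosome 2), a bHLH factor of early differentiation, was at 4.90, 6.73 and 6.78 CPM in WT, 6.88, 6.87 and 5.92 CPM in ΔIBB/ΔIBB and 6.44, 5.65 and 4.94 CPM in -/- testes. Here too the groups overlapped, and the changes of 0.10 ± 0.14, -0.11 ± 0.15 and 0.20 ± 0.12 did not pass. For both genes WT replicate 1 was the lowest WT sample. Without it the change of Sohlh1 in ΔIBB/ΔIBB against WT was -0.0446 and that of Id4 in -/- against WT was -0.0491, both turned in direction.

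Lin28a (ENSMUSG00000050966, chromosome 4) encodes a regulator of let-7 microRNAs found in progenitors. It was at 6.28, 4.68 and 4.93 CPM in WT, 4.59, 5.36 and 5.86 CPM in ΔIBB/ΔIBB and 4.41, 4.38 and 4.31 CPM in -/- testes. On this scale the -/- samples were below all others, but in TPM they overlapped both other groups. The -/- testes gave -0.28 ± 0.14 against WT (adjusted p = 0.375), and ΔIBB/ΔIBB exceeded -/- by 0.27 ± 0.12 (adjusted p = 0.126). With library size as the only scaling this last difference passed (adjusted p = 0.0339). Lin28a lies 4.33 Mb from Kpna6 on chromosome 4. Within 5 Mb of Lin28a, 17 of 185 genes (9.19%) passed the test in -/- against WT, beside 1.6% of all genes and 0% to 6.67% around the other 9 genes. In ΔIBB/ΔIBB against WT the share was 45.7%, within the 36.8% to 49.1% found around the other 9. For this gene the genotype and a chromosome segment linked to the targeted allele cannot be told apart. Nanos3 (ENSMUSG00000056155, chromosome 8), a translational repressor, ranged from 0.868 to 1.68 CPM over all samples with overlap between all groups, and its fitted changes of 0.20, -0.03 and 0.21 were smaller than their standard errors of 0.31, 0.27 and 0.31.

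Uchl1 (ENSMUSG00000029223, chromosome 5 from 66676091 to 66687234, plus strand) encodes a deubiquitinating enzyme of spermatogonia that is also abundant in neurons. It was at 40.1, 39.6 and 42.6 CPM in WT, 57.6, 51.1 and 50.6 CPM in ΔIBB/ΔIBB and 49.6, 44.0 and 43.3 CPM in -/- testes. The groups did not overlap on this scale, with WT lowest and ΔIBB/ΔIBB highest. In TPM, Uchl1 overlapped between WT, at 71.8 to 78.9, and -/-, at 72.2 to 83.4. Against WT it rose in ΔIBB/ΔIBB by 0.38 ± 0.06 (adjusted p = 0.000929), to 1.3 times, and this passed in all 17 alternative analyses. The -/- testes gave 0.16 ± 0.06 (adjusted p = 0.249). The lines differed by 0.21 ± 0.07 (adjusted p = 0.0313), a call lost in 5 of 17 alternatives, including those without replicate 1 of ΔIBB/ΔIBB and without replicate 2 or 3 of -/-.

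Uchl1-201 is the only protein-coding transcript of Uchl1, and the other 3 are annotated as retained introns. Its level was 31.7 ± 4.13 TPM in WT, 50.5 ± 5.79 TPM in ΔIBB/ΔIBB and 40.4 ± 3.75 TPM in -/- testes (SD, n = 3). It made up 42.3% ± 3.35 of Uchl1 in WT, 51.4% ± 0.939 in ΔIBB/ΔIBB and 53.0% ± 2.37 in -/- testes, and the WT samples, at 39.9% to 46.1%, lay below all others. The summed level of 10 nerve and glia markers was 36.0 to 39.6 TPM in WT, 59.5 to 70.0 TPM in ΔIBB/ΔIBB and 39.5 to 47.9 TPM in -/- testes. Tubb3, a tubulin of neurons that Sertoli cells also make, was higher in ΔIBB/ΔIBB than in WT (0.94 ± 0.08) and had means of 20.4, 42.8 and 25.9 TPM in the 3 groups. Without Tubb3 the sum was 16.7 to 19.2 TPM in WT, 21.1 to 25.2 TPM in ΔIBB/ΔIBB and 15.9 to 19.9 TPM in -/- testes. The part of nerve, glia or Sertoli cells in the Uchl1 result was not tested.

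The contrast of stem with differentiating genes was taken within each sample. The mean log2(TPM + 0.1) of the 8 stem and progenitor genes minus that of Sohlh1 and Kit was -0.685, -1.16 and -1.04 in WT, -1.15, -1.20 and -1.27 in ΔIBB/ΔIBB and -1.22, -0.915 and -0.795 in -/- testes. All groups overlapped, with means of -0.96 ± 0.246 (SD, n = 3), -1.21 ± 0.0635 and -0.975 ± 0.217. The median log2 fold change in ΔIBB/ΔIBB against WT was 0.101 for the 8 genes and 0.195 for Sohlh1 and Kit. Without WT replicate 1 the order turned, to 0.136 and 0.0818. The ratio of the receptors Gfra1 and Kit, chosen after their values were seen and given as a description, was 0.560, 0.495 and 0.494 in WT, 0.288, 0.277 and 0.321 in ΔIBB/ΔIBB and 0.432, 0.387 and 0.458 in -/- testes on normalized counts. None of the groups overlapped on this scale. Computed from TPM, the ratio was 0.344 to 0.462 in WT and 0.292 to 0.392 in -/-, which overlapped, and 0.197 to 0.223 in ΔIBB/ΔIBB testes.

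**Figure D4:**
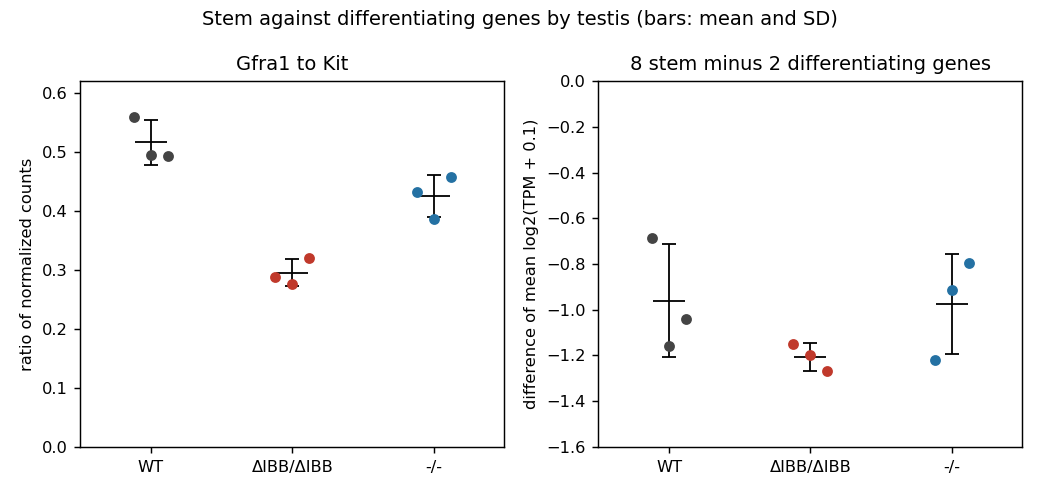
Left, ratio of Gfra1 to Kit normalized counts in each testis; right, difference between the mean log2(TPM + 0.1) of 8 stem and progenitor genes and that of Sohlh1 and Kit. Points are samples and bars the mean and SD of 3; the ratio was 0.277 to 0.321 in ΔIBB/ΔIBB and at least 0.387 elsewhere, while the difference overlapped between all groups.

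Of 15 further differentiating spermatogonium genes, 8 passed as higher and 0 as lower in ΔIBB/ΔIBB against WT, beside 17.7% and 18.9% of all genes. All 15 fitted values were above 0 with a median of 0.295. Without WT replicate 1, 7 passed as higher. For the 0 lower, DESeq2 gave 0 as well, and none of the 9 genes at an unadjusted p under 0.05 was below 0. Crabp1, a retinoic acid binding protein, was at 6.42, 6.31 and 6.48 TPM in WT, 10.0, 8.86 and 9.61 TPM in ΔIBB/ΔIBB and 5.32, 5.30 and 6.75 TPM in -/- testes. It rose by 0.44 ± 0.14 against WT (adjusted p = 0.0257), beside the cyclin Ccnd2 with 0.44 ± 0.11 (adjusted p = 0.0099) and the transcription factor Dmrt1 with 0.41 ± 0.06 (adjusted p = 0.000455). Dmrt1 is also made by Sertoli cells and stood on that marker list too. In -/- against WT no gene of the list passed with edgeR or DESeq2, 0 had an unadjusted p under 0.05 with edgeR, and the median was 0.0192. Between the lines 7 of 15 were higher, beside 13.5% of all genes, led by Crabp1 (0.57 ± 0.15), Ccnd2 (0.53 ± 0.11) and Sohlh2 (0.32 ± 0.08).

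Of 25 further genes of the undifferentiated pool, 22 were tested in ΔIBB/ΔIBB against WT, and 3 were higher and 1 lower with a median of 0.112. Beside 17.7% of all genes higher and 18.9% lower, these counts of 22 were no larger than the background. The integrin subunit Itga6 rose by 0.69 ± 0.09, the adhesion molecule Mcam by 0.45 ± 0.07 and Etv5, a factor induced by GDNF, by 0.34 ± 0.08. Itga6 and Mcam are also expressed outside the germ line. The part of cells outside the germ line in the rises of Itga6, Mcam and Etv5 was not tested. Eomes, a T-box factor known from a fraction of stem cells, was at 31, 27 and 35 counts in WT, 5, 8 and 12 in ΔIBB/ΔIBB and 13, 27 and 9 in -/- testes. Its log2 fold change was -1.92 ± 0.34 in ΔIBB/ΔIBB against WT (adjusted p = 0.00132) and -0.91 ± 0.35 in -/- against WT (adjusted p = 0.252). Without WT replicate 1, 5 of the list were higher and 1 lower. None of 21 tested passed in -/- against WT with edgeR or DESeq2, and 2 had an unadjusted p under 0.05 with edgeR. Between the lines 4 of 21 were higher, beside 13.5% of all genes. These were Tspan8 (0.92 ± 0.20), Itga6 (0.61 ± 0.06), Mcam (0.46 ± 0.08) and Etv5 (0.39 ± 0.09).

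**Figure D5:**
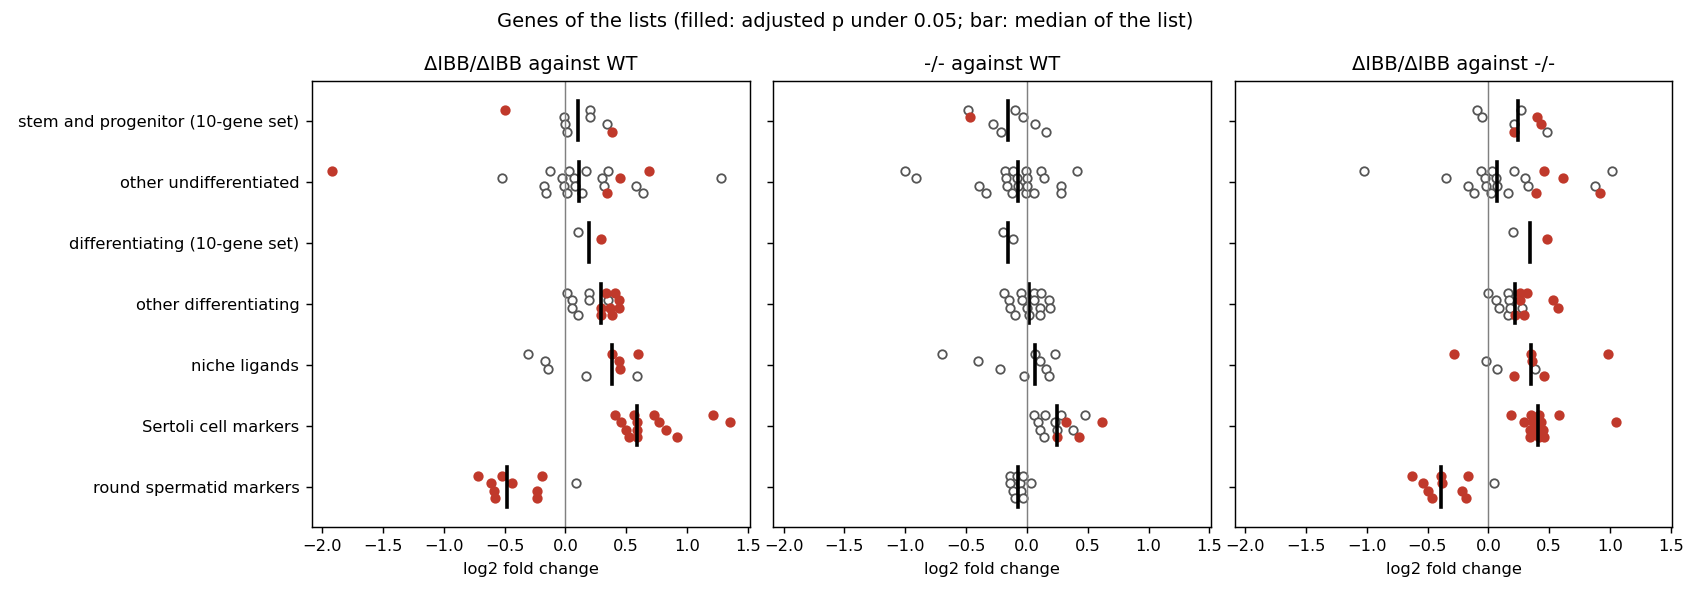
Log2 fold changes (horizontal axis) of the genes on 7 lists in the 3 comparisons, with 1 point per gene tested, filled where the adjusted p was under 0.05, and a vertical bar at the list median. The other differentiating genes had a median of 0.295 against WT in ΔIBB/ΔIBB and of 0.0192 in -/- testes, beside Sertoli cell medians of 0.591 and 0.25.

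Gdnf, the ligand of GFRA1, had 22 to 57 counts per library and gave -0.14 ± 0.19 in ΔIBB/ΔIBB (adjusted p = 0.589) and -0.22 ± 0.27 in -/- (adjusted p = 0.761) against WT. Kitl, the ligand of KIT, was at 6.55, 5.96 and 5.95 TPM in WT, 9.31, 9.17 and 8.97 TPM in ΔIBB/ΔIBB and 7.11, 6.95 and 6.74 TPM in -/- testes. The groups did not overlap. Kitl rose by 0.38 ± 0.07 in ΔIBB/ΔIBB against WT (adjusted p = 0.00211) and was higher by 0.21 ± 0.05 in ΔIBB/ΔIBB than in -/- (adjusted p = 0.0105). Of 9 niche ligands tested, 4 passed as higher in ΔIBB/ΔIBB against WT, beside 17.7% of all genes. These were Fgf2 (0.60 ± 0.12), Igf1 (0.45 ± 0.12), Csf1 (0.44 ± 0.12) and Kitl. For Igf1 this holds on counts, since its mean TPM went the other way, from 4.7 in WT to 4.39 in ΔIBB/ΔIBB, with samples that overlapped. Between the lines 5 were higher, beside 13.5% of all genes, and Cxcl12 was lower (-0.28 ± 0.08), beside 16.8%. The largest rise was that of Bmp4 (0.98 ± 0.27), on 16 to 53 counts per library. No ligand passed in -/- against WT with edgeR or DESeq2, and 1 had an unadjusted p under 0.05 with edgeR.

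Among 13 GDNF and KIT signalling partners tested, 4 were higher and 2 lower in ΔIBB/ΔIBB against WT. Beside these stood 17.7% of all genes higher and 18.9% lower. The list median was 0.00641 and that of all genes 0.00898. Beside Kit, Kitl and Gfra1 the partners called were the adaptors Grb2 (0.60 ± 0.07) and Shc1 (0.26 ± 0.06), which were higher, and Socs7 (-0.27 ± 0.04), which was lower. Gfra1 was the 1 gene of this list that passed in -/- against WT. Between the lines Kit, Grb2 (0.38 ± 0.06), Kitl and Shc1 (0.21 ± 0.06) were higher and Socs7 (-0.32 ± 0.04) was lower in ΔIBB/ΔIBB. Over all genes 13.5% were higher and 16.8% lower there.

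Markers of other testis cells moved in the same comparisons. Over all genes tested, 17.7% were called higher and 18.9% lower in ΔIBB/ΔIBB against WT. In -/- against WT these shares were 0.889% and 0.712%. The summed level of 14 Sertoli markers was 2080 to 2510 TPM in WT, 3660 to 4220 TPM in ΔIBB/ΔIBB and 2640 to 2830 TPM in -/- testes. All 14 passed as higher in ΔIBB/ΔIBB against WT with a median of 0.591, and 4 of 14 in -/- against WT with a median of 0.25, or 8 of 14 without WT replicate 1. In ΔIBB/ΔIBB against WT, 4 of 10 macrophage markers were higher (7 without WT replicate 1 and 2 without replicate 3 of ΔIBB/ΔIBB), and of 10 peritubular and endothelial markers 4 were higher and 1 lower. Of 7 preleptotene markers 3 were higher and 1 lower, and of 10 leptotene to zygotene markers 1 was higher and 2 lower. These lists share genes, so their counts are not independent. Dmc1, called higher, stood on both. Scml2, called higher, and Stra8 stood on the preleptotene list and on that of further differentiating spermatogonium genes. Of the later germ cells, 4 of 10 pachytene (6 without WT replicate 1), 9 of 10 round spermatid and 10 of 10 elongating spermatid markers were lower, with medians of -0.121, -0.479 and -0.366. In -/- against WT the preleptotene, pachytene, round and elongating spermatid lists had no call with edgeR or DESeq2, and 2, 1, 2 and 0 genes at an unadjusted p under 0.05 with edgeR. Of 10 epididymis markers 5 were tested in ΔIBB/ΔIBB against WT, with Crisp1 and Spink8 higher, and 1 was called without replicate 3 of ΔIBB/ΔIBB. The part of these cell types in the values of the 10 genes was not tested.

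No other gene of the annotation overlapped any of the 10 genes, and no other gene matched them at 95% identity over 100 bases or more.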

How the data were processed

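The authors deposited 1 kallisto table per testis (poly(A) libraries, with kallisto 0.45 and mm10 in the submitters' processing notes), which gives an estimated count and a TPM value for 96626 transcripts. Deposited values were summed per gene by GENCODE M21 (GRCm38). Of these transcripts 95301 fell on 32035 genes, and 1325 that M21 does not list were left out. Totals on genes ran from 24859751 to 31484692 counts per library.

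Rounded estimated counts were tested pairwise on 6 samples with edgeR 4.0.16 in R 4.3.3 (filterByExpr, TMM, quasi-likelihood test, Benjamini-Hochberg over all genes tested, threshold 0.05). Alternatives were DESeq2 1.42.0, limma 3.58.1 on log2 TPM with a pseudocount of 0.1 or 1, other filters and scalings, protein-coding transcripts, all 9 samples in 1 fit, a replicate block and each sample left out. In simulated data for ΔIBB/ΔIBB against WT (18797 genes) edgeR recovered 73 of 100 genes changed 2-fold and 96 of 100 changed 4-fold, with 17 false calls. At 3 against 3 samples the smallest p of an exact permutation test is 0.1, so none is given. Similar sequences were searched for with blastn 2.17.0.

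Named are the 10 genes, Kpna6 and, from each other list, up to 3 called genes per direction and comparison with the largest change. Gdnf, Shc1, Tubb3, the mast cell and epididymis markers, Kitl among the ligands and Etv5 between the lines were named after their values were seen. The same holds for Dmc1, Scml2 and Stra8. The 10 genes and all lists were chosen with earlier results of these data known.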

Additional observations from a re-analysis of the deposited data

Results flagged for a closer look

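Of the 10 spermatogonial genes, 4 differed between the mutant lines when these were tested directly against each other, so that their changes relative to WT differed as well. The log2 fold change of ΔIBB/ΔIBB against -/- was 0.48 for Kit, 0.43 for Sall4, 0.40 for Zbtb16 and 0.21 for Uchl1, each higher in 3 of 3 ΔIBB/ΔIBB samples than in any -/- sample on normalized counts. In TPM, Sall4 overlapped, at 1.46, 2.29 and 1.44 in ΔIBB/ΔIBB and 1.10, 1.01 and 1.71 in -/- testes. Over all genes tested 30.3% passed in this comparison, and for 44.5% the groups did not overlap on normalized counts, in either direction. The Sall4 call was lost in 11 of 17 alternative analyses and the Uchl1 call in 5 of 17. The Sall4 difference rested on the smallest counts, 89 to 166 per library.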

How the results depend on the processing

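Uchl1 in ΔIBB/ΔIBB against WT and Zbtb16 and Kit in ΔIBB/ΔIBB against -/- passed the test in all 17 alternatives. Of these 17, summing near-identical sequences could not change a value, since none was found. Of 509 alternative log2 fold changes of the 10 genes, 431 kept direction and side of the threshold, 37 lost the call, 3 gained one and 38 turned direction; where the text states no cause, the cause was not tested.

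With library size only, 5 of the 10 genes were called in ΔIBB/ΔIBB against WT with a median of 0.245, and Id4 (0.0932) and Lin28a (0.0952) turned, as did Gfra1 (0.0527) and Id4 (0.0142) in ΔIBB/ΔIBB against -/-. With limma at pseudocounts of 1 and 0.1, 1 of the 10 was called in ΔIBB/ΔIBB against WT, Gfra1 and Kit were lost, and Id4 (0.125 and 0.129), Sall4 (-0.0289 and -0.0527) and Lin28a (0.0686 and 0.103) turned. In ΔIBB/ΔIBB against -/- limma turned Gfra1 (0.0298 and 0.0399) and Id4 (0.0549 and 0.0565), with a median of 0.357 at 0.1. Length-scaled counts gave a median of 0.059 in ΔIBB/ΔIBB against WT, with Ret (-0.00499), Id4 (0.00532) and Sall4 (-0.136) turned. Ret was -0.00486 with protein-coding transcripts only. Both of these settings called 2 of the 10 genes in ΔIBB/ΔIBB against -/-.

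In -/- against WT, 299 genes were called, beside 477 with DESeq2, 624 without a filter on low counts, 32 and 33 with limma and 70 with length-scaled counts. The call of Gfra1 there was lost, leaving 0 of the 10 genes, with library size only, a filter of 5 counts in a share of 0.47 of samples, the replicate block, all 9 samples, limma, length-scaled counts and protein-coding transcripts.

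The labels do not say whether the replicate numbers pair the samples. Correlations of the deviations of same-numbered samples over all expressed genes lay between -0.056 and 0.078. A pairing that acts on few genes was not tested. With the replicate block 6793, 229 and 6032 genes were called in ΔIBB/ΔIBB against WT, -/- against WT and ΔIBB/ΔIBB against -/-, and 3, 0 and 3 of the 10 genes. Id4 (0.00071) and Lin28a (0.00314) turned in ΔIBB/ΔIBB against WT.

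Leaving out each sample in turn gave 5260 to 6497, 92 to 518 and 4394 to 5735 called genes in the same order of comparisons (in -/- against WT 518 without WT replicate 1 and 92 to 180 without any other), with 2 to 3, 0 to 1 and 2 to 4 of the 10 genes and a median in ΔIBB/ΔIBB against WT of 0.0727 to 0.19. In ΔIBB/ΔIBB against WT the values that turned ranged from -0.165 to 0.112 for Ret, -0.129 to 0.0788 for Id4, -0.0927 to 0.136 for Lin28a, -0.166 to 0.358 for Nanos3 and -0.0446 to 0.177 for Sohlh1. In -/- against WT they ranged from -0.0491 to 0.157 for Id4 and -0.184 to 0.124 for Nanos3, and in ΔIBB/ΔIBB against -/- from -0.165 to 0.0325 for Gfra1 and -0.145 to 0.378 for Nanos3.

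Counts of the other gene lists without replicate 3 of ΔIBB/ΔIBB, a setting chosen after seeing the data, were 5, 8, 4 and 6 called genes against WT for the undifferentiated, differentiating, ligand and partner lists, beside 4, 8, 4 and 6.

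Depth limits Ret and Nanos3 most.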
